A study of Mus musculus with 6 samples.

Results

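The genes described here are the matrix proteases, their inhibitors and the lysyl oxidases of mouse liver, taken by gene name as the protein-coding Mmp, Timp, Adamts and Lox genes of the count table. They are 50 of 54532 genes: 22 matrix metalloproteinases (MMPs), 4 tissue inhibitors of metalloproteinases (TIMPs), 19 ADAMTS proteases and 5 lysyl oxidases. The study read the RNA of whole livers from male mice in 6 libraries, 3 labelled wild type (WT, replicates 1 to 3) and 3 labelled Trem2 KO (replicates 4 to 6), and the WT mice were littermates of the KO mice. All mice began a high-fat diet, which loads the liver with fat, at 8 weeks of age and stayed on it for 8 weeks, and no group on normal chow is analysed here. The strain, the kind of Trem2 deletion and any pooling of animals are not given in the sources used here. Nothing states that each library is another mouse, and p-values then measure only the spread between these samples.

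MMPs are zinc enzymes that cut collagens, elastin and proteoglycans, and TIMPs block them. ADAMTS proteases trim procollagen or cut proteoglycans, and lysyl oxidases cross-link collagen and elastin. In liver these genes are transcribed largely in stellate cells, fibroblasts, endothelium and macrophages, and they set how scar matrix is laid down and removed. Trem2 is a lipid-sensing receptor of macrophages.

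The libraries held 11591021 to 20399361 counts. Values are CPM, counts relative to library size scaled by TMM (a trimmed mean of ratios between libraries), given for WT replicates 1, 2 and 3 and then KO replicates 4, 5 and 6. Trem2 itself had 7, 26 and 26 counts in the WT-labelled and 9, 6 and 5 in the KO-labelled libraries, so it did not separate the labels, and directions are between libraries as labelled. Hepatocyte markers summed to 84814 to 132151 CPM in WT-labelled and 84186 to 92749 CPM in KO-labelled livers. The library labelled KO replicate 5 stood apart. It held 117 CPM of 11 skeletal muscle markers, against 0 to 1.0 CPM in the other libraries, and 15.9 CPM of 4 white adipose markers, against 0 to 0.636 CPM. Its Acta1, the skeletal muscle actin, had 593 counts where the other 5 libraries had 0 to 3. A list of cartilage, bone and muscle genes summed to 47.7 CPM there and to at most 0.192 CPM elsewhere, with Ibsp and Matn1 at 0. The skeletal muscle, adipose and smooth muscle lists were chosen after the values were seen. The matrix genes with high values in this library, and the lists around them, are given with and without it.

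Most of these genes were scarce in liver. Of the 50, 43 had at least 1 count in some library, 7 had none (Mmp1b, Mmp10, Mmp20, Mmp21, Adamts18, Adamts19 and Adamts20), and 23 had enough counts to be tested. The levels of different genes were compared per length, by the authors' FPKM averaged over all 6 libraries. Mmp14, a membrane-bound MMP that activates pro-MMP2, averaged 9.93 FPKM. Mmp15, also membrane-bound, followed at 7.43, Mmp19, a secreted MMP, at 5.35, Adamts10, a protease that binds fibrillin microfibrils, at 3.54 and Timp2 at 2.93 FPKM. The order of the first 3 differed between the groups. In WT-labelled livers Mmp15 had 7.85 ± 2.87, Mmp19 6.97 ± 4.46 and Mmp14 6.08 ± 2.11 FPKM (SD, n = 3), within their spread of each other. In KO-labelled livers Mmp14 had 13.8 ± 7.59, Mmp15 7.01 ± 1.08 and Mmp19 3.74 ± 2.95 FPKM, with Mmp14 at 20.1 and 15.8 in replicates 4 and 6 and at 5.37 in replicate 5. These 3 genes took 55.0% of all counts of the 50. No other MMP reached 8 CPM in any library, as the plot of CPM by gene shows.

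**Figure D1:**
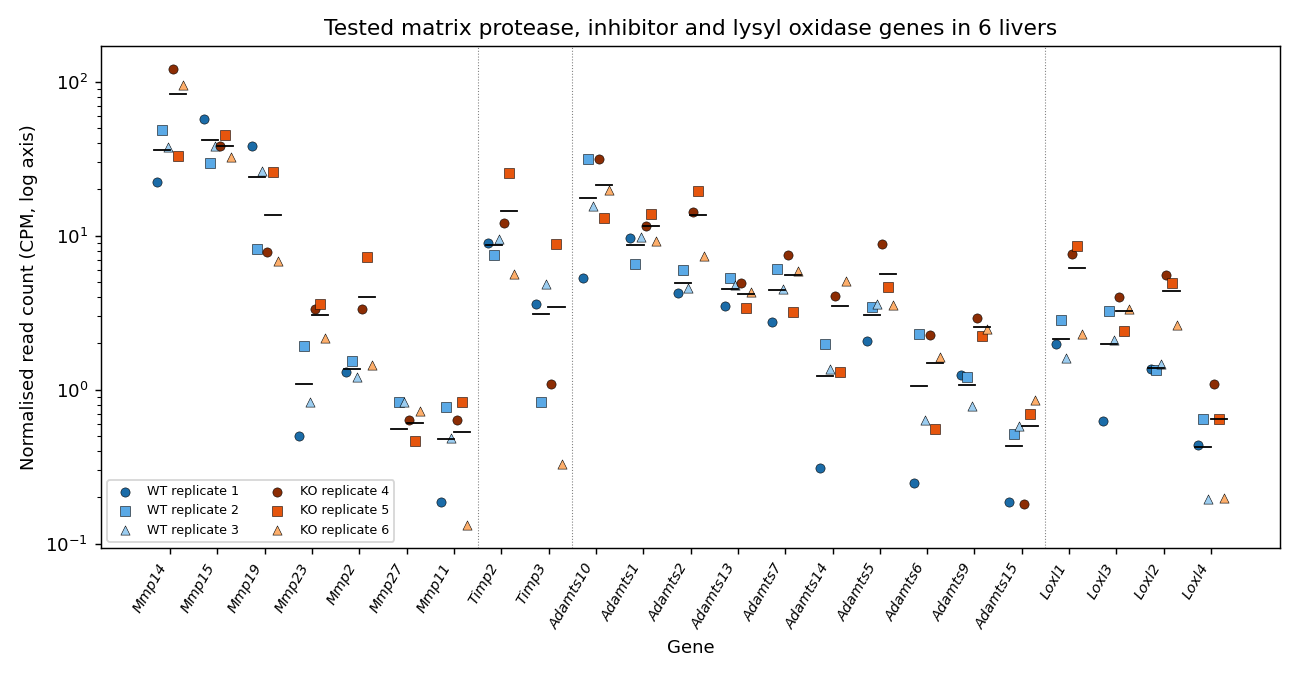
CPM (log axis) of the 23 tested genes, ordered within the MMP, TIMP, ADAMTS and lysyl oxidase families by their mean FPKM; points are libraries and black lines group means (n = 3 each). WT replicate 1 had 0 counts of Mmp27 and has no point there. Loxl2, Adamts2, Adamts9 and Mmp23 are the 4 genes whose KO-labelled points all lie above the WT-labelled ones (8.12% of all tested genes do).

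A block of 9 MMP genes lies side by side on chromosome 9 (mm10, 7272514 to 7699585, 427 kb), among them the collagenases Mmp8, Mmp13 and Mmp1b, the stromelysins Mmp3 and Mmp10 and the elastase Mmp12. Together they gave 231 of 20912 counts of the 50 genes, or 1.1%. Only Mmp27 of the block was tested. Promoter windows (RefSeq, GRCm38.p6, 250 bases before to 50 after a start site) were at hand for 32 of the 50 genes, and for all 9 of this block. The genes without one were Adamts4 to Adamts8, Adamts10, Adamts15, Adamts16, Adamts19, Lox, Loxl1, Loxl2, Loxl3, Mmp2, Mmp9, Mmp16, Mmp17 and Mmp19. They were searched on both strands for the AP-1 site TGAGTCA, the GC box GGGCGG and the TATA box TATAAA, and none of these strings contains another. Of the 9 genes, 6 held the AP-1 site, 8 the TATA box and 0 the GC box. Of the 13 tested genes with a window, 0 held the AP-1 site, 1 the TATA box and 12 the GC box. Among all 27025 genes with such windows 5.95%, 15.7% and 38.2% held the AP-1 site, the TATA box and the GC box. A match is only a string of letters in this window. The GC box was also in 7 of the 19 untested genes with a window, among them Adamts18 and Adamts20 with 0 counts. It was thus more frequent in the tested genes, but genes without a count held it too. The untested genes also include all of the block but Mmp27, and the block held no GC box. Median GC content of the windows was 66.5% in tested and 53.3% in untested genes. It was 40.7% in the block and 52.7% over all genes. The part of the block and of GC content in these motif counts was not tested.

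These 4 promoters show genes outside the block beside one in it, with any of the 3 motifs in capitals. Adamts2 (chr11:50601835-50602134, plus strand) has the smallest p among the proteases with a window, Mmp14 (chr14:54431348-54431647, plus strand) the highest FPKM averaged over the 6 libraries, and Timp2 (chr11:118355362-118355661, minus strand) the smallest p among the inhibitors. Mmp3 (chr9:7445572-7445871, plus strand) has the most counts in the block. Mmp14 and Mmp3 were added with their values known. The first 3 hold 5, 2 and 1 GC boxes, while Mmp3 holds 1 AP-1 site and 1 TATA box.
Adamts2: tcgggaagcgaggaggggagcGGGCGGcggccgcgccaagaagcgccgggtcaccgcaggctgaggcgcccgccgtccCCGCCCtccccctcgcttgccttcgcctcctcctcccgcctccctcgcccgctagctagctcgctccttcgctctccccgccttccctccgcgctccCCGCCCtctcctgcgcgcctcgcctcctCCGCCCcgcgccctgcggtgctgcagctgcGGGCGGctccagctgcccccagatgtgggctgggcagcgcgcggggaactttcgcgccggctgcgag
Mmp14: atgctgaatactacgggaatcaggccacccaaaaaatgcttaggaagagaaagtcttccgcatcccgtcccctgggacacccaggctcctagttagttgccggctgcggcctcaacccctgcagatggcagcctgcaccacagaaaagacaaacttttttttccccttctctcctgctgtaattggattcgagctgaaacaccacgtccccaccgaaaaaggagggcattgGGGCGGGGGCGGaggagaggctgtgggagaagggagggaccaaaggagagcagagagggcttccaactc
Timp2: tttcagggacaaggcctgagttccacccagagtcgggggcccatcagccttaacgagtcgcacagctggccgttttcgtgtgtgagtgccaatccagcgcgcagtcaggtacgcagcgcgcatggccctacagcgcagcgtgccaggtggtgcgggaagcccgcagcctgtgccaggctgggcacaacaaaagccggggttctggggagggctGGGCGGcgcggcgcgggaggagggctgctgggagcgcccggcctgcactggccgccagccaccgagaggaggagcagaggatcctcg
Mmp3: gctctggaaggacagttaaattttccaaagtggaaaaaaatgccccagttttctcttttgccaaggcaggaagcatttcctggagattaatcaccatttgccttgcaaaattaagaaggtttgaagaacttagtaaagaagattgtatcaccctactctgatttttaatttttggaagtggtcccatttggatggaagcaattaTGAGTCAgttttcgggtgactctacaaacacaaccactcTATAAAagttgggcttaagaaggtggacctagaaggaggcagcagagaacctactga

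The comparison was between livers labelled Trem2 KO and livers labelled WT. None of the 23 tested genes passed an adjusted p of 0.05 over all 13693 genes tested with edgeR's quasi-likelihood test, against 0.0146% of all genes. Of them, 7 had an unadjusted p under 0.05, all higher in the KO-labelled livers, against 5.37% of all genes in that direction and 8.58% in either. They were Loxl2, Adamts2, Adamts9, Loxl1, Mmp23, Mmp2 and Mmp14, and 0 were lower, against 3.21%. Fitted values were higher in KO-labelled livers for 20 of 23 genes, against 49.1% of all, and the median log2 difference was 0.59, against -0.01 over all genes. A log2 difference of 1 or more was fitted for 8 genes, against 5.89% of all, and one of -1 or less for 0, against 2.69%. Each of the 7 named had at least 8 counts in every WT-labelled library, and the 27 untested genes are in none of these counts. In 4 of the 23 (Loxl2, Adamts2, Adamts9 and Mmp23) all KO-labelled libraries lay above all WT-labelled ones, against 8.12% of all genes, and in 0 below, against 5.73%. Loxl2 and Adamts2 stayed under an unadjusted p of 0.05 whichever library was left out (largest p 0.0141 and 0.0195). The other 5 of the 7 did not pass it without WT replicate 3. The number higher at an unadjusted p under 0.05 was 2 of 27 without WT replicate 3, against 3.12% of all genes. It was 3 of 24 without KO replicate 4, against 2.93%, and 11 of 28 without KO replicate 6, against 4%. The median was 1.12 without WT replicate 2 and 1.05 without KO replicate 6. In bulk tissue, fewer cells of a type and less RNA per cell cannot be told apart.

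The lysyl oxidases were all fitted higher, with a median log2 difference of 1.12 over the 4 tested. Loxl2 (ENSMUSG00000034205, chromosome 14, 69609068 to 69695834), which cross-links collagen, had 1.37, 1.34 and 1.46 CPM in WT-labelled and 5.54, 4.96 and 2.63 CPM in KO-labelled livers. The WT-labelled values were nearly alike, and each KO-labelled one lay above them. The log2 difference was 1.64 (SE 0.38), a 3.12-fold mean difference, with an edgeR adjusted p of 0.383. It was 1.53 without KO replicate 5, and it ranged from 1.44 to 1.90 over the fits that leave out 1 library. DESeq2 put Loxl2 at an adjusted p of 0.0248, where 1.29% of all genes passed. In 5.57% of its exon length Loxl2 shares bases with an antisense gene, and no source used here says whether counting used strand.

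Loxl1, which acts mainly on elastin, had 1.99, 2.82 and 1.60 CPM in WT-labelled and 7.63, 8.61 and 2.30 CPM in KO-labelled livers. KO replicate 6 lay inside the WT-labelled range and the other KO-labelled livers above it. Its log2 difference was 1.53 (SE 0.52, edgeR adjusted p = 0.48), or 1.20 without KO replicate 5. Loxl3 had 0.623, 3.27 and 2.09 against 4.0, 2.41 and 3.35 CPM, and Loxl4, at 50 counts in all, had a log2 difference of 0.59 (SE 0.74). An antisense neighbour, Htra2, shares 11.6% of the exon length of Loxl3. Lox, the founding member, was too scarce to be tested. Its counts were 0, 5 and 7 in WT-labelled and 12, 38 and 6 in KO-labelled libraries, 38 of them in KO replicate 5. That is 0, 0.320 and 0.340 against 1.09, 1.76 and 0.394 CPM. Each KO-labelled value lay above the WT-labelled ones, with KO replicate 6 close to WT replicate 3.

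Among the procollagen N-proteinases, which remove the amino-terminal propeptide so that collagen can form fibrils, Adamts2 stood out. Adamts2 (ENSMUSG00000036545, chromosome 11, 50602084 to 50807573) had 4.24, 6.02 and 4.57 CPM in WT-labelled and 14.4, 19.5 and 7.36 CPM in KO-labelled livers. All KO-labelled values lay above the WT-labelled ones, with KO replicate 6 the nearest. The fitted log2 difference was 1.48 (SE 0.37, edgeR adjusted p = 0.40), and 1.13 without KO replicate 5. DESeq2 gave an adjusted p of 0.0423. In limma-voom with sample quality weights 8 of the 23 genes passed an adjusted p of 0.05, but so did 29.7% of all genes. Among the 8, Mmp19 and Timp3 were fitted lower. The weights in that fit were 5.53 for WT replicate 3 and 2.82 for KO replicate 6, and 0.303 to 0.989 for the other libraries. Adamts14, of the same class as Adamts2, had 0.312, 1.98 and 1.36 against 4.09, 1.30 and 5.12 CPM. Here KO replicate 5 fell inside the WT-labelled range, and the log2 difference of 1.5 (SE 0.72) was 1.91 without it. Adamts3, of this class too, gave 14 counts in all.

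The proteoglycanases cut aggrecan and versican. Adamts9 (ENSMUSG00000030022, chromosome 6, 92772699 to 92943492) had 1.25, 1.22 and 0.778 CPM in WT-labelled and 2.91, 2.22 and 2.5 CPM in KO-labelled livers. The groups did not overlap, and KO replicate 5 was the lowest of the KO-labelled livers. The log2 difference was 1.23 (SE 0.38, edgeR adjusted p = 0.437), and 1.32 without KO replicate 5. Exons of 2 antisense genes cover 9.18% and 2.82% of its exon length. Adamts1 and Adamts5 lie next to each other on chromosome 16. Adamts1 had 9.72, 6.53 and 9.82 against 11.6, 13.8 and 9.19 CPM, and Adamts5, the main aggrecanase of cartilage, 2.06, 3.46 and 3.60 against 8.81, 4.63 and 3.55 CPM. Their groups overlapped, at log2 differences of 0.41 (SE 0.26) and 0.89 (SE 0.42). Adamts15 had 53 counts in all and a log2 difference of 0.46 (SE 0.69), while Adamts4 and Adamts8 gave 9 and 17 counts.

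Adamts13, which cuts von Willebrand factor and is known as a stellate cell product in liver, differed little between libraries. It had 3.49, 5.31 and 4.77 CPM in WT-labelled and 4.90, 3.38 and 4.33 CPM in KO-labelled livers, a log2 difference of -0.11 (SE 0.30). Adamts10 ranged more within groups than between them, at 5.30, 31.7 and 15.7 against 31.6, 13.1 and 19.9 CPM. Adamts7, which cuts a cartilage matrix protein, had 2.74, 6.08 and 4.52 against 7.54, 3.20 and 5.91 CPM, and Adamts6 0.249, 2.31 and 0.632 against 2.27, 0.556 and 1.64 CPM. In these 3 genes WT replicate 1 was the lowest library. Their log2 differences were 0.29 (SE 0.59), 0.31 (SE 0.42) and 0.47 (SE 0.83). Adamts12, Adamts16 and Adamts17 gave 20, 11 and 4 counts.

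The fitted differences of the cell-surface and secreted MMPs had no common direction. Mmp14 (ENSMUSG00000000957, chromosome 14, 54431612 to 54445364) had 22.4, 48.8 and 37.5 CPM in WT-labelled and 122, 33.0 and 95.4 CPM in KO-labelled livers. KO replicates 4 and 6 were above all WT-labelled livers, and KO replicate 5 was below WT replicates 2 and 3. Its log2 difference was 1.20 (SE 0.48, edgeR adjusted p = 0.549), and 1.58 without KO replicate 5. Mmp15 had 57.6, 29.8 and 38.4 against 38.4, 45.0 and 32.4 CPM, a log2 difference of -0.12 (SE 0.28). Mmp17, which is anchored in the membrane by a lipid, gave 59 counts, 32 of them in KO replicate 5, and Mmp16, Mmp24 and Mmp25 gave 5, 2 and 1.

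Mmp19 (ENSMUSG00000025355, chromosome 10, 128790910 to 128800824) varied up to 5.59-fold between livers without following the labels. It had 38.2, 8.20 and 26.4 CPM in WT-labelled and 7.81, 26 and 6.83 CPM in KO-labelled livers. WT replicate 2 lay with KO replicates 4 and 6, and KO replicate 5 with WT replicates 1 and 3. The fitted log2 difference was -0.83 (SE 0.66, edgeR adjusted p = 0.699), -1.74 without KO replicate 5 and -0.35 without WT replicate 1. An antisense neighbour, Tmem198b, shares 22.3% of the exon length of Mmp19. Mmp14 made up 14.3%, 43.2% and 27.6% of the summed MMP FPKM in WT-labelled and 59.2%, 19.99% and 60.6% in KO-labelled livers. Mmp19 made up 41.2%, 12.2% and 32.8%, and 6.41%, 26.6% and 7.32%. Shares of one sum depend on each other. CPM values are relative to the scaled library size and not to the MMP sum, though both genes share that size in each library. They put the same 3 livers (KO replicates 4 and 6 and WT replicate 2) highest in Mmp14 and lowest in Mmp19.

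**Figure D2:**
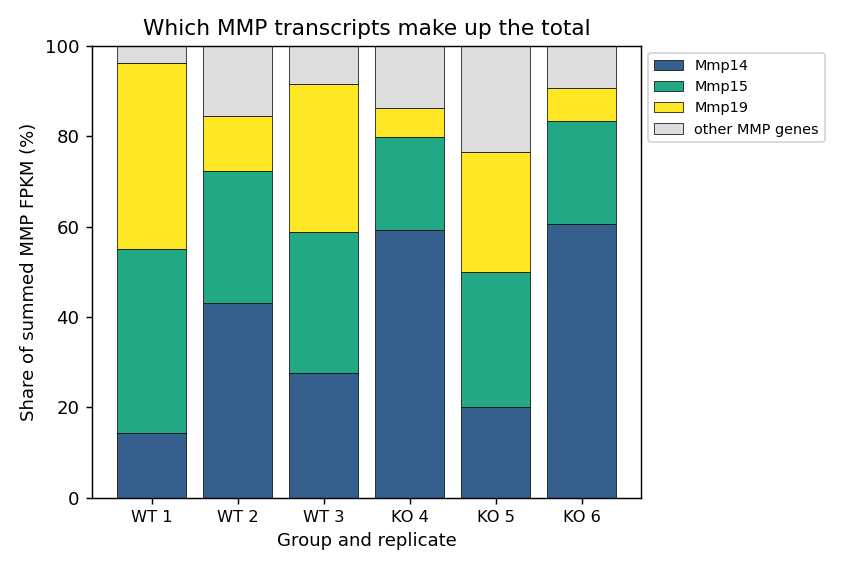
Share of the summed FPKM of the 22 MMP genes held by Mmp14, Mmp15, Mmp19 and the rest in each library (bars from 0 to 100%). The Mmp14 share is highest in KO replicates 4 and 6 (59.2% and 60.6%) and lowest in WT replicate 1 (14.3%).

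The libraries had the same order in Mmp14 as in their share of mitochondrial RNA, as they did, or in reverse, for 4.55% of all tested genes. Genes of the mitochondrial genome took 8.16%, 12.7% and 10.2% of counts in WT-labelled and 28.0%, 9.08% and 19.8% in KO-labelled libraries. Across the 6 libraries log2 CPM of Mmp14 and the log2 mitochondrial share had a Pearson r of 0.985 (exact permutation p = 0.00139, 0.0319 adjusted over the 23 genes) and a Spearman rho of 1 (exact permutation p = 0.00278, 0.0639 adjusted). Without KO replicates 4 and 6, the libraries farthest from the median share, r was 0.954. Mmp19 had r = -0.863 (exact permutation p = 0.0278, 0.16 adjusted) and rho = -0.886 (exact permutation p = 0.0333, 0.153 adjusted), and r = -0.956 without those 2 libraries. An absolute r of 0.9 or more was found in 1 of the 23 genes, or 4.35%, and in 13.8% of all tested genes. With the mitochondrial share in the model the log2 differences were 0.12 for Mmp14 and 0.12 for Mmp19. The share differs between the labelled groups as well, and its part in these values was not tested beyond that fit.

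Of the other MMPs, Mmp2 and Mmp23 were tested with an unadjusted p under 0.05. Mmp2, the gelatinase that cuts denatured and basement membrane collagen, had 1.31, 1.54 and 1.22 CPM in WT-labelled and 3.36, 7.27 and 1.44 CPM in KO-labelled livers. KO replicate 6 lay within the WT-labelled range, and KO replicate 5 was the highest. The log2 difference was 1.58 (SE 0.58, edgeR adjusted p = 0.52), and 0.81 without KO replicate 5. Mmp23, a membrane MMP without the usual carboxy-terminal domain, had 0.499, 1.92 and 0.827 against 3.36, 3.61 and 2.17 CPM. Its groups did not overlap, at a log2 difference of 1.5 (SE 0.54), or 1.35 without KO replicate 5. Mmp11, a stromelysin, and Mmp27 had log2 differences of 0.17 (SE 0.76) and 0.10 (SE 0.93), with 52 and 58 counts in all. Antisense Chchd10 shares 5.58% of the exon length of Mmp11. Mmp9, the gelatinase of neutrophils and macrophages, gave 26 counts, Mmp12 of macrophages 28, Mmp28 25, the collagenases Mmp13 and Mmp8 21 and 7, and Mmp7, the matrilysin of bile duct epithelium, 30.

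Mmp3 had 0, 7 and 5 counts in WT-labelled and 15, 53 and 7 in KO-labelled libraries, and fell below the count filter. KO replicate 5 held 53 of its 87 counts, and KO replicate 6, with 7, was about level with WT replicate 2. With no count filter 12 of 43 genes had an unadjusted p under 0.05 as higher, against 4.59% of all genes. These were the 7 above with Adamts14, Mmp3, Lox, Timp1 and Timp4, and their edgeR adjusted p was 0.0922 or more. Leaving out KO replicate 5 as well, 9 were higher, against 7.06% of all genes, and 2 lower, against 9.18%. Of the genes below the filter Mmp3 was among the 9, at a log2 difference of 1.88. Lox, Timp1 and Timp4 were not, at 1.62, 1.74 and 1.43. In that fit 4 genes passed an edgeR adjusted p of 0.05, where 5.4% of all genes did. Mmp14 had 0.000138 and Adamts14 0.0128 as higher, and Mmp19 had 0.000279 and Timp3 0.0176 as lower.

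The TIMPs differed from one another. Timp2, the most abundant and the partner of Mmp14 in activating pro-MMP2, had 9.04, 7.56 and 9.58 CPM in WT-labelled and 12.2, 25.5 and 5.65 CPM in KO-labelled livers. KO replicate 5 was the highest and KO replicate 6 the lowest of all 6 livers. Its log2 difference was 0.73 (SE 0.48, edgeR adjusted p = 0.668), and 0.02 without KO replicate 5. Timp3, the inhibitor bound to matrix, had 3.61, 0.832 and 4.86 against 1.09, 8.85 and 0.328 CPM. As in Mmp19, KO replicate 5 lay with WT replicates 1 and 3, and WT replicate 2 with KO replicates 4 and 6. The log2 difference of 0.17 (SE 1.05) turned to -2.18 without KO replicate 5 (edgeR adjusted p = 0.248). Timp3 lies within Syn3 on the opposite strand, and 21.3% of its exon length is shared with exons of that gene.

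Timp1, the inhibitor most often raised in injured liver, had only 1, 6 and 7 counts in WT-labelled and 15, 18 and 8 in KO-labelled libraries. That is 0.0623, 0.384 and 0.340 against 1.36, 0.834 and 0.525 CPM, with each KO-labelled value above the WT-labelled ones. In the fit without a count filter its log2 difference was 1.71, with an edgeR adjusted p of 0.623. Timp4, known from heart, muscle and fat, had 33 of its 38 counts in KO replicate 5, and 1, 0 and 1 in the WT-labelled libraries. That library is the one with skeletal muscle and adipose transcripts. The summed TIMP FPKM was 0.108, 0.130 and 0.151 of the summed MMP FPKM in WT-labelled livers, and 0.140, 0.318 and 0.0793 in KO-labelled ones. The KO-labelled livers thus held both the highest and the lowest ratio.

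**Figure D3:**
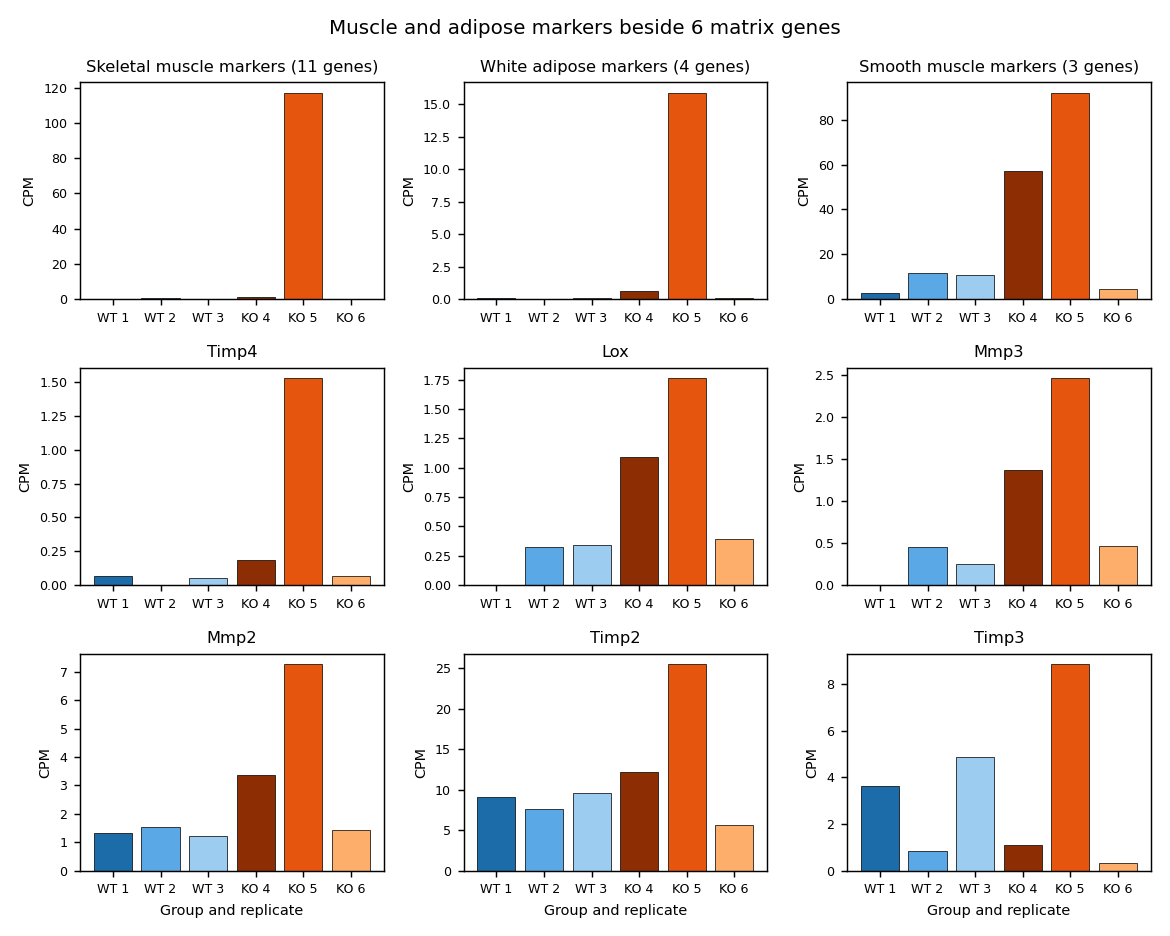
CPM per library of skeletal muscle, white adipose and smooth muscle markers (sums over each list, top row) and of 6 matrix genes (bars start at 0; each panel has its own axis). KO replicate 5 is the highest library in all 9 panels, and KO replicate 4 is next in all but Timp3.

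Markers of several cell types known to make these genes were mostly fitted higher in the KO-labelled livers. None of the tested markers passed an adjusted p of 0.05 over all genes in edgeR. Of the sums over whole lists in this paragraph, only the mesothelial and the endothelial ones did not overlap between the groups. The white adipose sums given above did not overlap either, at 0 to 0.0623 CPM in WT-labelled and 0.0657 to 15.9 CPM in KO-labelled livers. Smooth muscle markers (Myh11, Actg2 and Cnn1) summed to 2.80 to 11.8 CPM in WT-labelled and to 57.2, 92.1 and 4.66 CPM in KO replicates 4, 5 and 6. Of all tested genes 49.1% were fitted higher. Mesothelial and portal fibroblast markers were fitted higher in 9 of 10, with sums of 47.5 to 66.0 CPM in WT-labelled and 95.2 to 159 CPM in KO-labelled livers, and none of the 11 listed was at 0. Stellate cell and fibroblast markers were fitted higher in 10 of 15, at 217 to 233 and 222 to 414 CPM, with none of 16 at 0. Sinusoidal endothelial markers were fitted higher in 12 of 12, at 270.3 to 318 and 375 to 550 CPM. Kupffer cell markers were fitted higher in 8 of 10. At an unadjusted p under 0.05, 4 of them were higher and 1 lower, against 5.37% and 3.21% of all genes. At that p 6 of 10 mesothelial, 4 of 15 stellate and 4 of 12 endothelial markers were higher and 0 lower. Of 10 macrophage markers 2 were higher and 1 lower. The Kupffer cell sums overlapped, at 259 to 450 and 312 to 336 CPM. They lay apart only without C6, the most abundant of these markers in most libraries, at 129.6, 172 and 177 against 248, 200.4 and 263 CPM. Monocyte-derived and lipid-associated macrophage markers were fitted higher in 9 of 10, with overlapping sums of 93.3 to 130.3 and 127 to 143 CPM. These sums too lay apart only with a gene left out, Fabp5, at 97.2, 108 and 83.4 against 137, 137 and 124 CPM. C6 and Fabp5 were left out after their values were seen, so no conclusion is drawn from the sums without them. Hepatocyte markers were fitted lower in 11 of 12, with a median log2 difference of -0.39. Neutrophil markers summed to 5.64 to 11.3 and 4.26 to 8.67 CPM, with Ly6g at 0 counts, and bile duct cell markers to 54.8 to 96.9 and 69.5 to 95.8 CPM. Without KO replicate 5 the numbers fitted higher were 9 of 11 mesothelial, 9 of 15 stellate, 10 of 12 endothelial, 8 of 10 Kupffer cell and 9 of 10 macrophage markers, and 11 of 12 hepatocyte markers were fitted lower. The part of these cells in the values of the matrix genes was not tested.

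**Figure D4:**
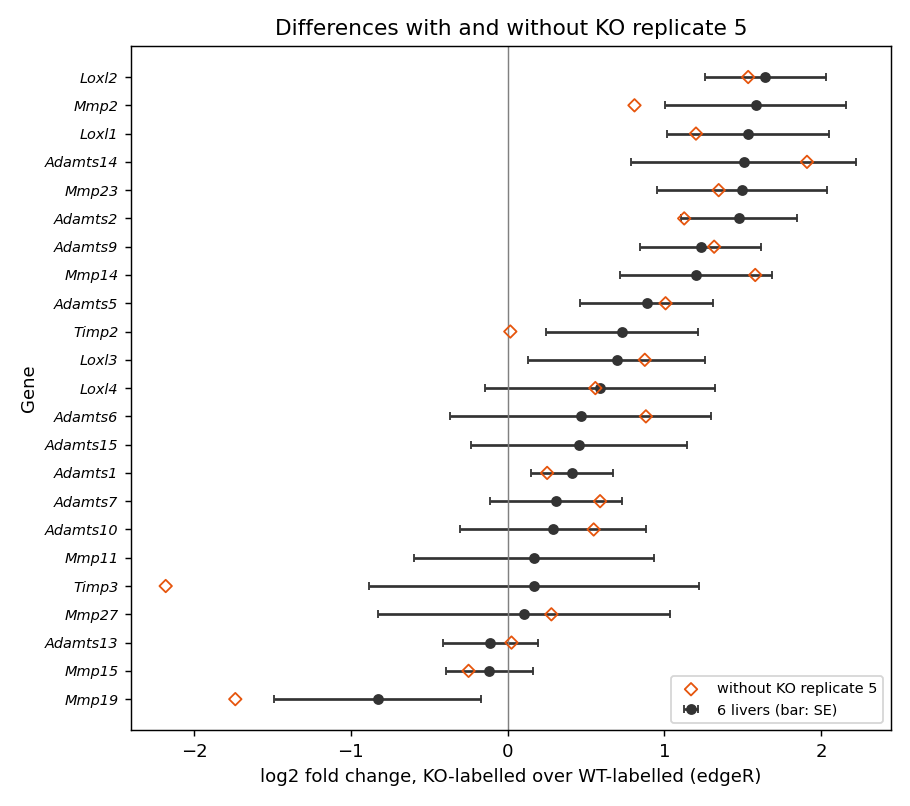
Log2 fold changes of the 23 tested genes, KO-labelled over WT-labelled (edgeR), with all 6 livers (filled points, bars are SE) and without KO replicate 5 (open diamonds; Mmp11 and Adamts15 did not pass the filter there). Timp3 goes from 0.17 to -2.18, Timp2 from 0.73 to 0.02 and Mmp2 from 1.58 to 0.81, while Loxl2, Adamts9 and Mmp23 stay within 0.2 of their value.

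Without KO replicate 5 the set of genes at an unadjusted p under 0.05 was another one. Mmp14, Loxl2, Adamts2, Adamts9 and Adamts14 were higher, 5 of 21 tested against 8.88% of all genes. Mmp19 and Timp3 were lower, 2 of 21 against 10.2%. With the count filter none passed over all genes, the lowest adjusted p in edgeR being 0.197, for Mmp14. Loxl2, Adamts2, Adamts9 and Mmp14 are the genes in both sets.

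The genes around these enzymes were read from lists of the pathway. Of 29 tested matrix substrates, 14 had an unadjusted p under 0.05 as higher, against 5.37% of all genes, 0 as lower, against 3.21%, and 0 passed over all genes. Without KO replicate 5 it was 7 of 29, against 8.88%. The median log2 difference was 0.89. Col1a1, the main collagen of scar, had 4.11, 8.90 and 7.83 against 35.2, 60.7 and 12.8 CPM, a log2 difference of 2.38 (SE 0.56), and 1.78 without KO replicate 5. Col3a1, Col1a2 and Col4a2 had 2.28, 1.94 and 1.07, and 2.15, 1.68 and 0.83 without it. Of 12 genes listed as other protease inhibitors and protease receptors, 2 were higher and 3 lower at that p, against 5.37% and 3.21% of all genes. There were as many without KO replicate 5, against 8.88% and 10.2%. The 2 higher were the collagen-binding proteins Serpinh1 and Sparc. The 3 lower were the receptor Lrp1 and the inhibitors Serpine2 and Pzp. Serpinh1, the collagen chaperone HSP47, had 15.8, 25.4 and 23.1 against 53.9, 51.8 and 34.2 CPM, and Sparc, a collagen-binding protein, a log2 difference of 1.11 (SE 0.30). Lrp1, the endocytic receptor that clears proteases with their inhibitors, had 515, 659 and 568 against 294, 427 and 315 CPM, a log2 difference of -0.75 (SE 0.24). Serpine2, a serine protease inhibitor, had -1.68 (SE 0.64) with overlapping groups. The third lower gene, Pzp, a broad protease trap named after its value was seen, had -0.91 (SE 0.38).

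Of 16 other extracellular proteases and activators 1 was higher at an unadjusted p under 0.05, near the 5.37% of all genes, and 0 lower. Without KO replicate 5 it was 1 higher and 3 lower of 17, against 8.88% and 10.2%. This was Adam15, a membrane disintegrin protease, with 1.68, 3.27 and 4.04 against 7.54, 6.85 and 5.39 CPM. Of 19 genes of TGF-beta signalling 5 were higher and 1 lower, against 5.37% and 3.21% of all genes. Without KO replicate 5 it was 3 and 2, against 8.88% and 10.2%. The median log2 difference of the 19 was -0.02. The latent TGF-beta binding proteins Ltbp2, Ltbp1 and Ltbp3, which hold the growth factor in the matrix, had log2 differences of 2.02, 1.55 and 1.24, and 1.51, 1.15 and 1.14 without KO replicate 5. Tgfb1, the ligand, had 6.11, 7.04 and 8.12 against 12.5, 10.8 and 10.1 CPM (log2 0.65, SE 0.22). The other higher gene was the ligand Tgfb3 at 1.21 and the lower one Skil, a repressor of the pathway, at -0.75, both named after their values were seen. Of 11 tested ADAMTS-like proteins and lysyl-modifying enzymes 1 was higher, against 5.37% of all genes. Without KO replicate 5 it was 1 higher and 1 lower, against 8.88% and 10.2%. The higher one was Adamtsl2, which binds latent TGF-beta binding protein, with 8.16, 11.9 and 10.5 against 18.4, 19.5 and 18.6 CPM. Of 7 tested AP-1 subunits, stress-responsive transcription factors, 0 were higher or lower at that p, against 5.37% and 3.21% of all genes. Without KO replicate 5, 2 were higher, against 8.88%, Atf3 at a log2 difference of 2.95 and Fosb at 1.48. With all libraries the smallest p was that of Atf3, with 18.5, 0.960 and 5.64 against 119, 1.44 and 11.1 CPM. The groups overlapped, with KO replicate 4 the highest and KO replicate 6 below WT replicate 1. Fosb was next, with a log2 difference of 0.99 (SE 0.73). With all libraries none of the genes named here passed over all genes, the lowest edgeR adjusted p among those named being 0.37, for Col3a1.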

How the data were processed

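The authors deposited a table of gene counts and FPKM values for 6 mouse liver libraries. The build mm10 and the tools DESeq2 1.16.1, featureCounts 1.5.0-p3 and HISAT2 2.0.5 are listed, per the submitters' processing notes. Their roles, and the strand setting, are not given in the sources used here. Deposited FPKM (per length and library size) implied library sizes of 0.846 to 1.14 times the column totals and served only to compare genes.

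The quasi-likelihood method of edgeR 4.0.16 (R 4.3.3) was run on the deposited counts: TMM scaling, filterByExpr, KO against WT, Benjamini-Hochberg adjustment over 13693 genes. DESeq2 1.42.0, limma 3.58.1, other scalings and filters, a mitochondrial covariate and leaving out each library were alternatives. Scripts were tested on simulated data. The members and lists were chosen with earlier results of these data known. Every tested member is named, untested ones by counts. Of each pathway list, up to 4 genes at unadjusted p under 0.05, or otherwise the 2 smallest p, are named. No library pair differed by as little as sampling noise. The fit with no count filter and without KO replicate 5, the lists without that library, and the muscle and adipose lists were chosen after seeing the data.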

Additional observations from a re-analysis of the deposited data

How the results depend on the processing

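No paired analysis was possible because the replicate numbers 1 to 3 and 4 to 6 are not shared between the groups. Groups of 3, and few counts for most genes, limit what could be seen, and where values moved the cause was not tested. Genes past the adjusted p numbered 2 in edgeR, 176 in DESeq2, 1 in limma-voom, 4063 in limma-voom with sample quality weights, 1 by library size alone, 61 with no count filter, 1288 with no count filter and without KO replicate 5, 0 without WT replicate 1 and KO replicate 4, 1 with the mitochondrial covariate and 0 to 1 with each library left out. Matrix genes past it numbered 0, 2 in DESeq2, 4 with no count filter and without KO replicate 5, and 8 with quality weights, where 29.7% of all genes passed. Those at an unadjusted p under 0.05 as higher numbered 7, 12 with no count filter and 4 on log2(FPKM + 1), against 5.37%, 4.59% and 4.85% of all genes. They numbered 2 without WT replicate 1 and KO replicate 4, against 2.07%, and 2 to 11 with each library left out, against 2.93% to 8.88%. As lower they numbered 0, against 3.21% of all genes, and 2 with no count filter and without KO replicate 5, against 9.18%. With each library left out they numbered 0 to 2, the 2 being without KO replicate 5, against 10.2%. With quality weights they numbered 2, and the share of all genes lower at that unadjusted p was not computed there. At the stricter adjusted p of 0.05, 1993 of 13693 genes were lower in that fit. The median of 0.59 ranged from 0.55 to 1.12 with each library left out, and was 0.23 on log2(FPKM + 1), 0.43 on log2(FPKM + 0.1), 0.40 with the mitochondrial covariate, 0.49 without WT replicate 1 and KO replicate 4, and 0.50 with quality weights. Genes fitted higher numbered 20 of 23, 36 of 43 with no filter, 17 of 23 with quality weights, 17 of 24 without WT replicate 1 and KO replicate 4, and 18 of 23 with the covariate. Genes with groups apart numbered 4 of 23, against 13.9% of all genes. They numbered 11 with no filter, 7 without WT replicate 1 and KO replicate 4, and 5 to 13 with each library left out. The share of all genes was not computed in those settings. Smaller groups lie apart more easily, so a rise there is not a result about these genes. DESeq2, limma-voom and the covariate fit give no count of genes with groups apart. Signs turned for Timp3 in limma-voom (-0.51), on log2(FPKM + 1) (-0.027) and on log2(FPKM + 0.1) (-0.35). With quality weights they turned for Timp2 (-0.31), Timp3 (-2.82) and Mmp11 (-0.93). Without WT replicate 1 and KO replicate 4 they turned for Mmp15 (0.18), Adamts10 (-0.52), Adamts7 (-0.22), Adamts6 (-0.42), Mmp27 (-0.49) and Mmp11 (-0.30). With the mitochondrial covariate they turned for Mmp15 (0.16), Mmp19 (0.12), Adamts10 (-0.46), Adamts7 (-0.39), Adamts6 (-0.78) and Mmp27 (-0.38). With each library left out, ranges crossed 0 for Mmp15 (-0.32 to 0.18), Adamts10 (-0.14 to 1.02), Mmp27 (-0.46 to 0.51), Mmp11 (-0.20 to 0.64), Adamts13 (-0.27 to 0.024) and Timp3 (-2.18 to 0.69).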

Other observations

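KO replicate 5 was the highest library for 8 of the 23 tested matrix genes, or 34.8%, and for 12.5% of all tested genes. WT replicate 1 was the lowest library for 10 of them, or 43.5%, and for 28.9% of all tested genes. Summed over the 50 genes, the libraries held 168, 177 and 176 CPM in WT-labelled and 303, 241 and 217 CPM in KO-labelled livers. The summed lysyl oxidase FPKM was 1.14, 2.01 and 1.32 in WT-labelled and 4.63, 4.43 and 2.01 in KO-labelled livers, with KO replicate 6 level with WT replicate 2.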
